A study of Rattus norvegicus with 18 samples.

Results

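The neurotrophin genes followed here were the ligands Bdnf and Ntf3, the receptors Ntrk2, Ntrk3 and Ngfr, and Vgf, a secreted neuropeptide precursor that neurotrophins induce. They came as a list of names, were found on the array by gene name or transcript accession, and make up 6 of the 12404 gene symbols tested. The 6 genes were read by 8 probes, 2 each for Bdnf and Ntrk2, and all 8 probes were well above background on all 18 arrays and saturated on none. The 1-colour arrays measured RNA from brain cortex of male Crl:CD(SD)BR rats.

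The samples form 6 groups of 3 arrays. Rats with ischemia were treated with EPO (erythropoietin, the red cell hormone, also studied for protecting neurons), rats with ischemia were given saline, and sham-operated rats had no treatment by their label. Each of these was sampled at 6 h and at 2 h after occlusion of the middle cerebral artery (MCAO), the vessel that supplies most of the lateral cortex. The sham rats thus differed from the saline rats both in the occlusion and in the saline. The dose of EPO is not given in the sources used here, and no label says whether each replicate came from its own animal, so the p-values measure only the spread between these samples. Of 8 cortical neuron markers 7 were tested, and all 7 were well above background on all 18 arrays. Levels below are log2 signal relative to the array's 75th percentile, and a level is compared only between arrays, never between probes. A change is a difference of log2 levels ± the standard error of the fit (limma, 12 residual degrees of freedom), with the Benjamini-Hochberg adjusted p over 28634 probes and a threshold of 0.05. The number of arrays limits the precision, with a median standard error of 0.13 over all probes.

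Neurotrophins are secreted growth factors that neurons and their targets use to regulate survival, axon growth and synaptic strength. BDNF acts mainly through the receptor tyrosine kinase TrkB (gene Ntrk2) and NT-3 (gene Ntf3) mainly through TrkC (gene Ntrk3), while the p75 receptor (gene Ngfr) binds all neurotrophins and their uncleaved precursors. In cortex, Bdnf is an activity-regulated gene with several promoters, each joined to its own first exon, and calcium entry switches some of them on through CREB. Astrocytes carry much truncated TrkB, which lacks the kinase.

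Bdnf lies at chr3:116619633-116670212, Ntf3 at chr4:160601161-160670623, Ntrk2 at chr17:5560558-5875899, Ntrk3 at chr1:141526192-141913575, Ngfr at chr10:81012077-81030305 and Vgf at chr12:25274004-25281803 (GRCr8 assembly). RefSeq promoter windows were at hand for Bdnf (6), Ntf3 (3) and Vgf (1). The last 250 bases before each annotated start were searched on both strands for the cAMP response element (CRE) TGACGTCA, its half-site CGTCA, the E-box CACGTG, the AP-1 site TGANTCA and the TATA box TATAAA. The half-site is contained in the CRE. Among all 33469 windows of that length, 1.59% held a CRE, 18.2% a half-site, 5.59% an E-box, 6.34% an AP-1 site and 12.9% a TATA box.

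These 2 windows are shown because they hold the half-sites found, and because Bdnf and Vgf correlated most of the member pairs over the 18 arrays. That correlation lay between groups (0.835, and 0.131 with group means removed), and a part of these motifs in it was not tested. Capitals mark the CRE and its half-sites, and both runs end at the base before the annotated start. The first is the Vgf window at chr12:25277021-25277270, minus strand, and the second the fourth of the Bdnf windows at chr3:116637608-116637857, plus strand (RefSeq, GRCr8).
Vgf: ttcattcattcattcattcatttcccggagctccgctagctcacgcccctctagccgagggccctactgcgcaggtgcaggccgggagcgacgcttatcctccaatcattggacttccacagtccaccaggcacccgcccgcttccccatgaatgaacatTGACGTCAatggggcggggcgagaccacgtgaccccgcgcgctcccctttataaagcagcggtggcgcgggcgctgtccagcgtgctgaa
Bdnf: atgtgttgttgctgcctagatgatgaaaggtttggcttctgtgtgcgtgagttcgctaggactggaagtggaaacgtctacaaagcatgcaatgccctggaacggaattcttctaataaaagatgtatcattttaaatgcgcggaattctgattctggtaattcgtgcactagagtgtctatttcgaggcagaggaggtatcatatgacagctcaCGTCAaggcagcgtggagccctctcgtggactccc
The Vgf window held 1 full CRE at bases -90 to -83 from the start, an E-box at -65 to -60 and a TATA box at -41 to -36, which overlaps a TATA match on the other strand. The Bdnf window held 1 half-site at -35 to -31 and no full CRE. Of the other 5 Bdnf windows, of which 2 overlap, 1 held a TATA match, 1 an AP-1 site and 3 none of the motifs. The 3 Ntf3 windows, of which 2 are shifted by 1 base, held none. These are letter matches, which say nothing of binding in these samples.

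Bdnf was higher in ischemic than in sham cortex at both times, with and without EPO, and no ischemic array overlapped a sham array. By probe A_44_P219026 its levels at 6 h were 1.52, 2.03 and 1.35 in rats with ischemia and EPO, 0.73, 0.44 and 1.097 in rats with ischemia and saline, and -0.62, -0.57 and -0.77 in sham rats. At 2 h they were 0.67, 0.58 and 0.42 with EPO, 0.28, 0.25 and 0.79 with saline, and -0.87, -1.21 and -1.13 in sham. The lowest ischemic array of all stood at 0.25 and the highest sham array at -0.57. Ordered by mean, the groups ran from ischemia with EPO at 6 h (1.63 ± 0.35, SD, n = 3) through saline at 6 h (0.76 ± 0.33), EPO at 2 h (0.56 ± 0.13), saline at 2 h (0.44 ± 0.31) and sham at 6 h (-0.65 ± 0.10) to sham at 2 h (-1.07 ± 0.18). The 3 groups from saline at 6 h to saline at 2 h overlapped their neighbours among themselves, and no other neighbours in that order overlapped.

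**Figure D1:**
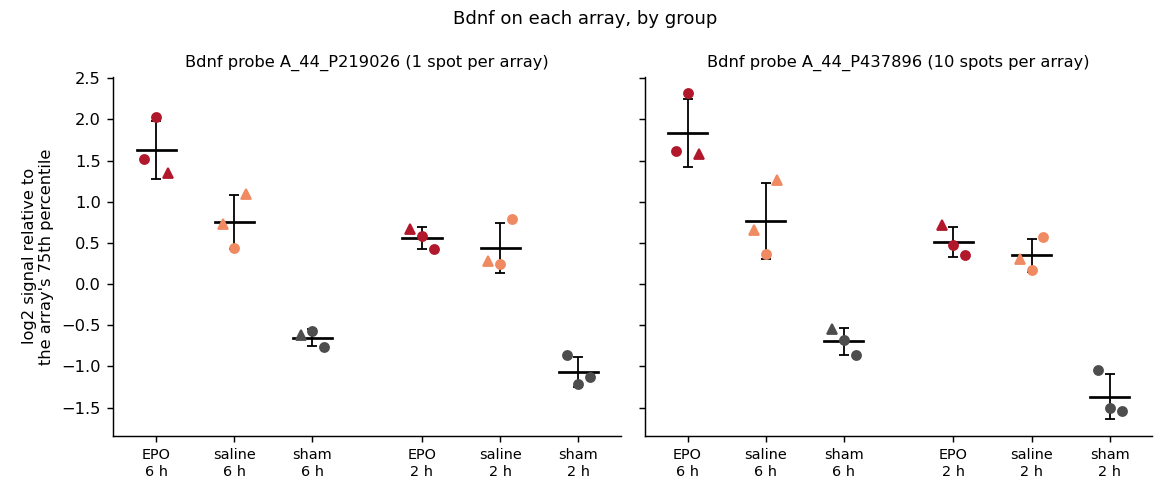
Bdnf on each array by 2 probes, as log2 signal relative to the array's 75th percentile. Points are arrays (triangles: spike-in slope above 0.9), bars are group means with SD over 3 arrays, and "EPO" and "saline" are rats with ischemia. All 12 ischemic arrays lie above all 6 sham arrays in both panels, and EPO at 6 h is the highest group.

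In EPO-treated ischemia against sham, Bdnf rose 4.87-fold at 6 h (2.28 ± 0.20, adjusted p = 8.52e-06) and 3.09-fold at 2 h (1.63 ± 0.20, adjusted p = 0.000609). In ischemia with saline against sham it rose 2.66-fold at 6 h (1.41 ± 0.20, adjusted p = 0.000631) and 2.84-fold at 2 h (1.51 ± 0.20, adjusted p = 0.00107). Both comparisons at a time use the same sham arrays. Over all probes tested, the share past the threshold was 16.1% at 6 h and 1.33% at 2 h for EPO against sham, and 11% at 6 h and 1.24% at 2 h for saline against sham. The change of the saline comparison between the times was -0.10 ± 0.28 for Bdnf (95% interval -0.70 to 0.51, adjusted p = 0.997), where 1.43% of probes passed. The second probe, A_44_P437896, with 10 spots per array, followed the first with r = 0.994 over the 18 arrays, which share the group differences. It gave changes of 2.53 ± 0.24 and 1.88 ± 0.24 for EPO against sham at 6 h and 2 h, and of 1.46 ± 0.24 and 1.72 ± 0.24 for saline against sham. Within single slides, each with 1 array per group, the differences were 2.60 and 1.98 (EPO, 6 h), 1.55 (EPO, 2 h), 1.01 and 1.72 (saline, 6 h) and 1.14, 1.45 and 1.92 (saline, 2 h). The rise with saline at 6 h was 1.11 and lost the call (adjusted p = 0.156) when the 6 arrays of steep spike-in slope were left out, which leaves 1 saline array at that time and assumes that it varied like the others. With slide as a fixed block the rise with EPO at 2 h was 1.51 at an adjusted p of 0.0518.

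Whether EPO altered Bdnf beyond ischemia was asked by setting EPO against saline in ischemic rats. At 6 h all 3 EPO arrays lay above all 3 saline arrays, a change of 0.87 ± 0.20 or 1.83-fold (95% interval 0.45 to 1.30), and by the second probe of 1.07 ± 0.24 or 2.10-fold. Neither passed the threshold over all probes (unadjusted p = 0.000693 and 0.000597, adjusted p = 0.778 for both), and limma called 0% of probes in this comparison, with 1184 at an unadjusted p under 0.05. Within slides the EPO array was higher by 0.78, 1.59 and 0.26. At 2 h the groups overlapped, with a change of 0.12 ± 0.20 (95% interval -0.31 to 0.55, adjusted p = 1), and 0% of probes were called against 381 at an unadjusted p under 0.05. The difference between these 2 effects was 0.75 ± 0.28 (unadjusted p = 0.0188, adjusted p = 0.92), where limma again called 0% of probes and 668 had an unadjusted p under 0.05. In sham rats Bdnf at 6 h stood 0.41 ± 0.20 above 2 h without overlap (adjusted p = 0.569), where 0.482% of probes passed.

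Vgf, whose peptides are stored in dense-core vesicles and released by active neurons, changed less than Bdnf on the log2 scale. Its levels at 6 h were 5.90, 6.16 and 6.01 in EPO-treated ischemia, 5.95, 5.79 and 5.88 in ischemia with saline, and 5.58, 5.41 and 5.38 in sham. At 2 h they were 5.85, 5.55 and 5.59 with EPO, 5.44, 5.80 and 5.69 with saline, and 4.99, 5.38 and 5.55 in sham. Every ischemic array exceeded every sham array at 6 h, and at 2 h the EPO arrays only just cleared the sham arrays while the saline arrays overlapped them. The rise in EPO-treated ischemia at 6 h was 1.48-fold (0.57 ± 0.14, adjusted p = 0.0126). The other comparisons with sham did not pass: 0.42 ± 0.14 with saline at 6 h (adjusted p = 0.0709), 0.36 ± 0.14 with EPO at 2 h (adjusted p = 0.292) and 0.34 ± 0.14 with saline at 2 h (adjusted p = 0.337). EPO against saline gave 0.15 ± 0.14 at 6 h and 0.02 ± 0.14 at 2 h, neither called. Without the 6 steep arrays the rise with EPO at 6 h was 0.64 at an adjusted p of 0.0707. In the order of means, each of the 6 groups overlapped its neighbour.

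Over the 18 arrays the Bdnf and Vgf levels had a Pearson correlation of 0.835, and 0.131 once each group's mean was removed. The likeness of the pair thus lay between groups rather than among the arrays of a group.

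Ngfr, the p75 receptor gene, which injured neurons and glia are known to switch on, was higher in ischemia at 6 h, with sham arrays that varied widely. Its levels at 6 h were -1.71, -2.36 and -2.71 in EPO-treated ischemia, -2.20, -2.33 and -2.32 in ischemia with saline, and -4.00, -3.09 and -2.81 in sham. At 2 h they were -3.33, -2.44 and -2.69 with EPO, -2.68, -2.14 and -2.79 with saline, and -2.30, -2.44 and -2.69 in sham. The ischemic and sham arrays did not overlap at 6 h and did at 2 h. Against sham at 6 h, Ngfr rose 2.06-fold in EPO-treated ischemia (1.04 ± 0.32, adjusted p = 0.0427), and in ischemia with saline the change was 1.02 ± 0.32 (adjusted p = 0.0607). Without replicate 1 of sham at 6 h, the lowest array, these changes were 0.69 (adjusted p = 0.178) and 0.66 (adjusted p = 0.219), and the EPO call held in 16 of 35 alternative analyses. Sham itself was lower at 6 h than at 2 h by -0.82 ± 0.32 without overlap (adjusted p = 0.424). At 2 h the changes against sham were -0.34 ± 0.32 with EPO and -0.06 ± 0.32 with saline, neither called. EPO against saline gave 0.02 ± 0.32 at 6 h (95% interval -0.67 to 0.72) and -0.28 ± 0.32 at 2 h.

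Ntf3, the NT-3 gene, passed no comparison, and its levels parted by the spike-in slope of the array. The levels at 6 h were -1.95, -3.13 and -3.64 in EPO-treated ischemia, -3.72, -3.11 and -3.85 in ischemia with saline, and -3.33, -2.46 and -2.35 in sham. At 2 h they were -4.05, -2.64 and -2.29 with EPO, -3.89, -2.22 and -2.64 with saline, and -2.38, -2.28 and -2.64 in sham. The low values were the steep arrays: the spike-in slope, that is how fast log signal rose with the log amount of added control transcripts, was 0.914 to 0.941 on 6 arrays and 0.788 to 0.866 on the other 12. Ntf3 ran from -4.05 to -3.33 on the 6 steep arrays and from -3.13 to -1.95 on the other 12, without overlap. Changes against sham were -0.19 ± 0.54 and -0.56 ± 0.54 with EPO at 6 h and 2 h, and -0.85 ± 0.54 and -0.49 ± 0.54 with saline. With the slope class as a block they were -0.19 and -0.18 with EPO at 6 h and 2 h, and -0.46 and -0.10 with saline, and none was called. Without that block, the interval of the saline change at 6 h, -2.00 to 0.31, spans both a fall and a rise. Steep arrays numbered 2 in saline at 6 h, 0 in sham at 2 h and 1 in each other group, and all 4 arrays of the slide scanned on the second day were steep.

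**Figure D2:**
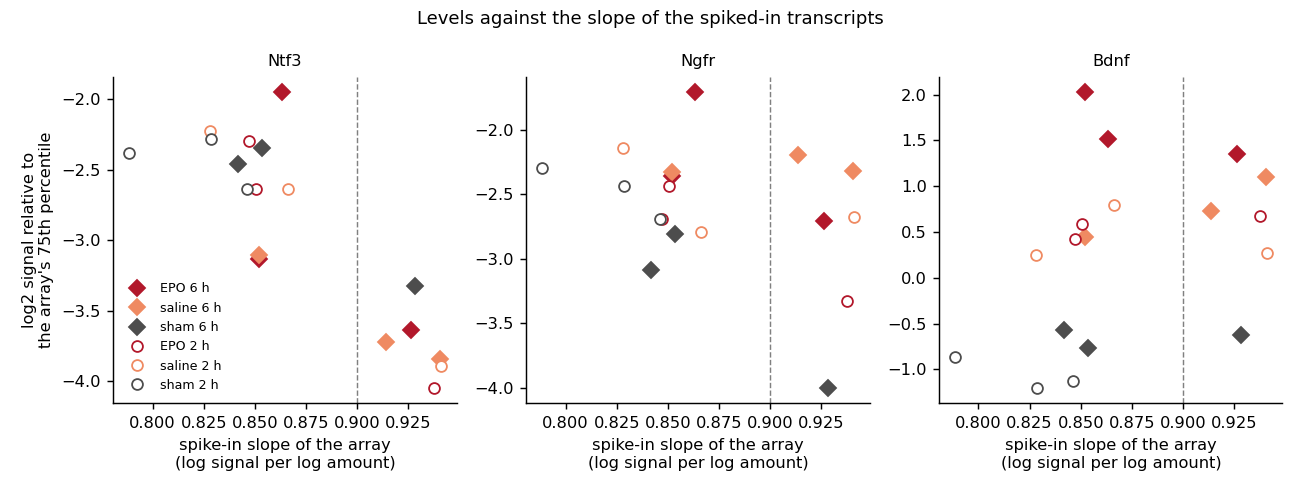
Levels of Ntf3, Ngfr and Bdnf on each array (log2 signal relative to the array's 75th percentile) against the spike-in slope of that array. Filled diamonds are 6 h and open circles 2 h, and the dashed line marks a slope of 0.9. Ntf3 lies below -3.3 on all 6 steep arrays, and the lowest Ngfr array is a steep sham array at -4.00. Bdnf shows its groups on both sides of the line, except sham at 2 h, which has no steep array.

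Ngfr had overlapping ranges in the slope classes, -4.00 to -2.20 on the steep arrays and -3.09 to -1.71 on the others. With group means removed, Ngfr and Ntf3 correlated at 0.785 over the 18 arrays, which share the slope classes. With the slope class as a block, the Ngfr change with EPO at 6 h was 1.04 (adjusted p = 0.0103), and without the steep arrays it was 0.91 (adjusted p = 0.0969).

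Ntrk2 and Ntrk3, the TrkB and TrkC genes, passed no comparison. Ntrk2 by its brighter probe, A_42_P538400, stood at 6 h at 4.78, 5.01 and 4.86 in EPO-treated ischemia, 4.42, 4.51 and 4.88 in ischemia with saline, and 4.63, 4.89 and 4.63 in sham. At 2 h it stood at 4.81, 4.61 and 4.55 with EPO, 4.91, 4.72 and 4.89 with saline, and 4.80, 4.69 and 4.40 in sham. All neighbouring groups overlapped. The 95% intervals of its changes against sham were -0.13 to 0.46 and -0.27 to 0.32 with EPO at 6 h and 2 h, and -0.40 to 0.18 and -0.08 to 0.50 with saline. EPO against saline gave 0.28 ± 0.14 at 6 h and -0.19 ± 0.14 at 2 h, with overlapping arrays.

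The second Ntrk2 probe, A_44_P161121, followed the first only weakly (r = 0.182 over 18 arrays), although both carry the same transcript accession. It read 1.15, 1.56 and 1.51 in EPO-treated ischemia at 6 h, 1.49, 1.43 and 1.53 with saline, and 1.29, 1.33 and 1.26 in sham. The saline arrays lay above the sham arrays at 6 h, a change of 0.19 ± 0.09 (adjusted p = 0.231), where the first probe gave -0.11 ± 0.14. At 2 h it read 1.21, 1.09 and 1.15 with EPO, 1.24, 1.13 and 1.26 with saline, and 1.43, 1.24 and 1.33 in sham. Its change with EPO against sham at 2 h was -0.19 ± 0.09 (adjusted p = 0.454). By this probe EPO against saline gave -0.08 ± 0.09 at 6 h, opposite in sign to the first probe, and -0.06 ± 0.09 at 2 h, with overlapping arrays. The probes also disagreed in sign for the saline effect at 2 h, 0.21 by the first and -0.13 by the second, so no direction is given for Ntrk2.

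Ntrk3 ranged from 3.43 to 3.49 in EPO-treated ischemia at 6 h, 3.33 to 3.51 with saline and 3.17 to 3.47 in sham. At 2 h it ranged from 2.83 to 3.58 with EPO, 3.32 to 3.55 with saline and 2.97 to 3.40 in sham. Every group overlapped its neighbour in the order of means. Its changes against sham were 0.10 ± 0.16 and -0.09 ± 0.16 with EPO at 6 h and 2 h, and 0.06 ± 0.16 and 0.20 ± 0.16 with saline.

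**Figure D3:**
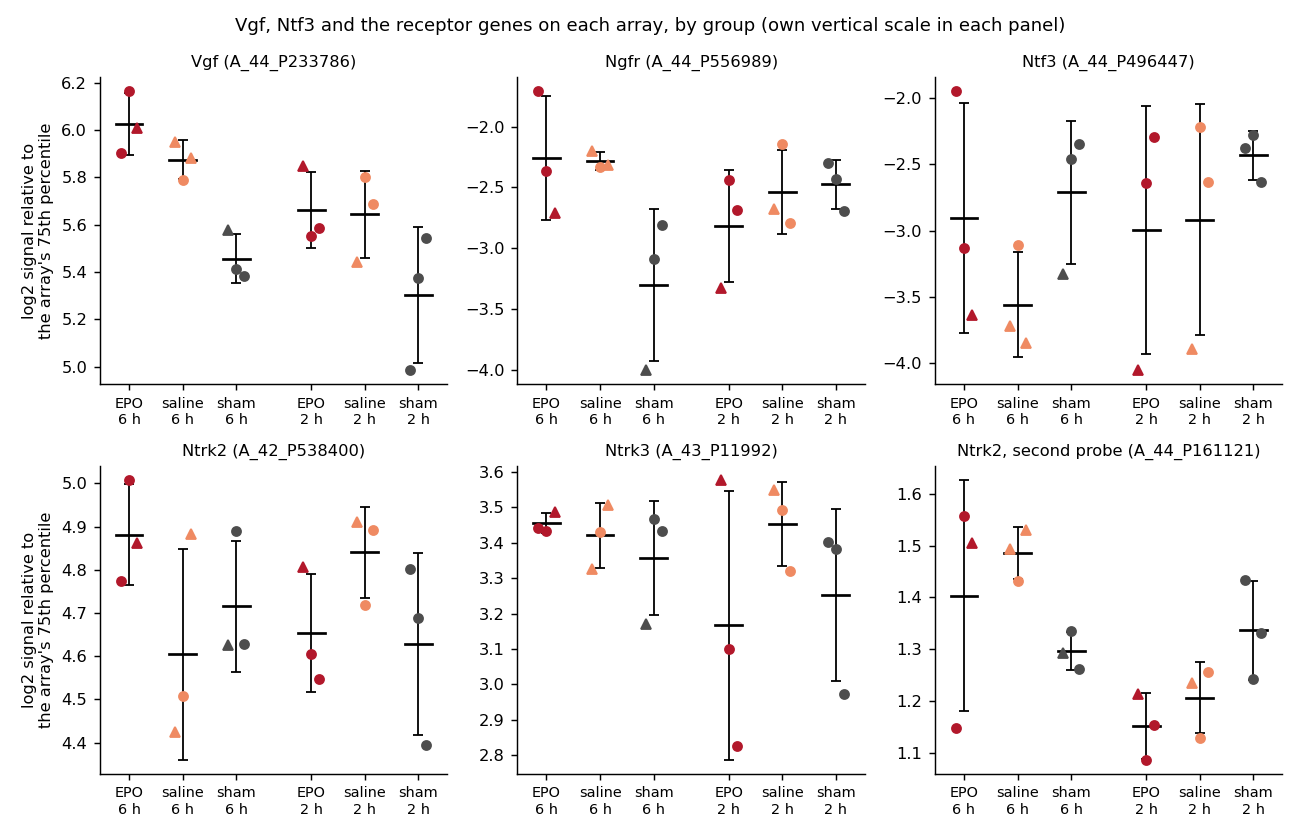
Vgf, Ngfr, Ntf3, Ntrk3 and both Ntrk2 probes on each array, as log2 signal relative to the array's 75th percentile, each panel on its own scale. Points are arrays (triangles: spike-in slope above 0.9) and bars are means with SD over 3 arrays. Vgf and Ngfr part ischemia from sham at 6 h, and the Ntf3 triangles sit low in their groups.

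Of the 6 genes, 3 passed in EPO-treated ischemia against sham at 6 h (Bdnf, Vgf and Ngfr) and 1, Bdnf, in each of the other comparisons of ischemia with sham. Over all genes 19.0% passed with EPO and 13.0% with saline at 6 h, and 1.81% and 1.63% at 2 h. None passed in EPO against saline, in sham at 6 h against 2 h, or in the tests of a change between times. At an unadjusted p under 0.05 limma gave 1 gene, Bdnf, for EPO against saline at 6 h, 0 at 2 h, and Bdnf and Ntrk2 for the change of that effect between times. Ntrk2 reached that level only by its brighter probe (0.465 ± 0.192, unadjusted p = 0.0301). Its second probe gave -0.03 ± 0.13 (unadjusted p = 0.839). Ngfr was the 1 gene at that level in sham at 6 h against 2 h and in the change of the saline effect. Of 28634 probes, 1184 reached that level for EPO against saline at 6 h, 381 at 2 h and 668 for the change between times. In sham at 6 h against 2 h 2587 probes reached it, and 3479 in the change of the saline effect.

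**Figure D4:**
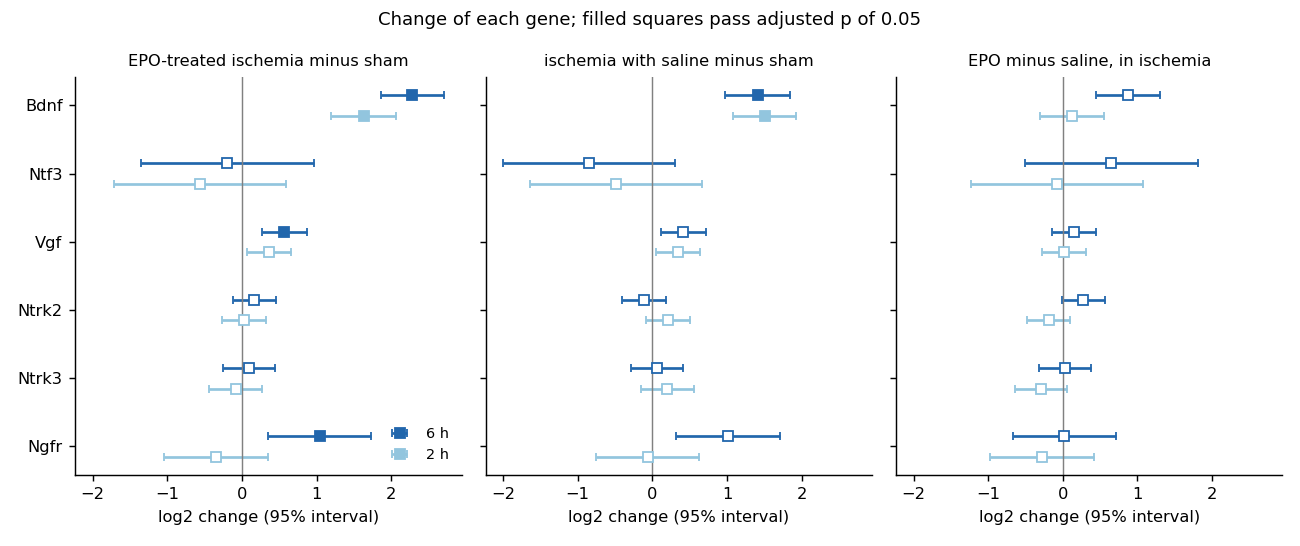
Log2 change of the 6 genes (brightest probe) in 3 comparisons, with 95% intervals from the fit over 18 arrays, at 6 h (dark) and 2 h (light). Filled squares passed an adjusted p of 0.05. Bdnf is the gene filled at both times, Vgf and Ngfr are filled at 6 h in EPO-treated ischemia against sham, and no square is filled for EPO minus saline.

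Among the other ligands, receptors and sorting receptors of the family, 9.09% were called at 6 h, with EPO and with saline alike. Of 11 such genes, 0 rose and 1 fell in EPO-treated ischemia at 6 h, 1 rose with saline at 6 h, and limma called 0 at 2 h with either (2 at an unadjusted p under 0.05 in each). Of 28634 probes, 3450 reached that unadjusted level with EPO and 3320 with saline at 2 h. The one that fell was Sorl1, a sorting receptor (-0.33 ± 0.10 with EPO, adjusted p = 0.0428, and -0.19 ± 0.10 with saline, adjusted p = 0.286). The one that rose was Sorcs3, a receptor of the sortilin family (0.58 ± 0.11 with saline, adjusted p = 0.0048, where EPO gave 0.28 ± 0.11, adjusted p = 0.106). Over the 12404 genes, 19.0% passed in EPO-treated ischemia and 13.0% with saline at 6 h, and 1.81% and 1.63% at 2 h.

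Genes for neurotrophin processing and dense-core vesicles were called in both directions at 6 h. Of 20 genes, 8 rose and 3 fell in EPO-treated ischemia at 6 h, and 6 rose and 3 fell with saline, with medians of 0.12 and 0.11 beside -0.01 and -0.09 for all genes. The shares called, 55.0% and 45.0%, stand beside 19.0% and 13.0% of all genes. At 2 h 3 of the 20 rose with EPO and 2 with saline, where 1.81% and 1.63% of all genes were called. Plat, tissue plasminogen activator, whose product plasmin can cleave proBDNF, rose in all 4, by 1.18 ± 0.13 with EPO and 1.04 ± 0.13 with saline at 6 h, and by 0.66 ± 0.13 and 0.81 ± 0.13 at 2 h. Mmp9, a matrix protease, rose by 1.07 ± 0.14 with EPO and 0.93 ± 0.14 with saline at 6 h. Pcsk1, a convertase of dense-core vesicles, rose by 0.40 ± 0.07 with EPO and 0.24 ± 0.07 with saline at 6 h, and by 0.47 ± 0.07 with either at 2 h. Pcsk2, a related convertase, fell by 0.36 on the log2 scale at 6 h with EPO (adjusted p = 0.00524) and with saline (adjusted p = 0.00817).

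Most regulators of Bdnf transcription were not called, and those called were mostly higher. Of 14 measured among 18 listed, 5 rose and 1 fell in EPO-treated ischemia at 6 h, 4 rose and 1 fell with saline at 6 h, and 2 rose with either at 2 h. At 6 h the shares called were 42.9% with EPO and 35.7% with saline, beside 19.0% and 13.0% of all genes, and at 2 h 14.3% with either, beside 1.81% and 1.63%. Npas4, an activity-induced factor that binds Bdnf promoters, was called higher in all 4 comparisons, but it entered the tests through the ischemic groups. It was well above background on 2 of 3 sham arrays at 6 h and on 1 of 3 at 2 h, so the size of its change is not given. The counts and shares above include Npas4, so they rest in part on a gene tested only because the ischemic groups read it. At 2 h the genes called were Crem and Npas4, with EPO and with saline. Crem, a cAMP-responsive relative of CREB, rose by 1.03 ± 0.11 with EPO and 0.80 ± 0.11 with saline at 6 h, and by 1.09 ± 0.11 and 1.14 ± 0.11 at 2 h. Srf, a factor of immediate-early promoters, rose by 0.54 ± 0.07 with EPO and 0.30 ± 0.07 with saline at 6 h.

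Downstream of the receptors, the Trk relay (adaptors, Ras, kinases and their inhibitors) had 9 genes higher and 1 lower of 44 in EPO-treated ischemia at 6 h, and 6 higher and 1 lower with saline. The shares called, 22.7% and 15.9%, were near those of all genes, 19.0% and 13.0%. Spry2, an inhibitor of receptor tyrosine kinase signalling, rose by 0.43 ± 0.08 with EPO at 6 h and by 0.68 ± 0.08 with EPO and 0.63 ± 0.08 with saline at 2 h. With saline at 6 h its change was 0.10 ± 0.08 (adjusted p = 0.548), and in sham it was higher at 6 h than at 2 h by 0.74 ± 0.08 (adjusted p = 0.00188). Rap1b, a small GTPase, rose by 0.47 ± 0.08 with EPO and 0.40 ± 0.08 with saline at 6 h. The p75 relay had 3 higher and 3 lower of 17 with EPO at 6 h, and 2 and 2 with saline, or 35.3% and 23.5% of the list. Rtn4r, the Nogo receptor that pairs with p75, fell in both (-0.47 ± 0.10 each). Adam17, a protease that sheds receptors including p75, rose by 0.40 ± 0.09 with EPO and 0.31 ± 0.09 with saline.

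Genes that TrkB signalling is known to induce had the highest shares called of these lists at 6 h. Most of these genes are induced by other kinds of neuronal activity too. The lists were chosen with earlier results of these data known, so this ranking is not an independent result. The shares were 68.8% with EPO and 56.2% with saline at 6 h, beside 19.0% and 13.0% of all genes. At 2 h they were 62.5% and 56.2%, beside 1.81% and 1.63%. Of 16, 10 rose and 1 fell in EPO-treated ischemia at 6 h, 8 rose and 1 fell with saline at 6 h, and at 2 h 10 rose with EPO and 9 with saline. The medians were 0.79 and 0.36 at 6 h and 1.33 and 1.22 at 2 h. Fos, an immediate-early factor, rose by 3.29 ± 0.31 with EPO and 2.65 ± 0.31 with saline at 6 h. Arc, a synaptic plasticity gene, rose by 2.47 ± 0.24 with EPO and 1.56 ± 0.24 with saline at 6 h. Nptx2, a secreted pentraxin of excitatory synapses, rose by 2.53 ± 0.24 with EPO and 1.78 ± 0.24 with saline at 6 h. In EPO against saline limma called 0 of the 16 genes at either time (8 at an unadjusted p under 0.05 at 6 h and 0 at 2 h). Over all 28634 probes, 1184 reached that unadjusted level at 6 h and 381 at 2 h. The median of the list was 0.35 at 6 h beside 0.03 for all genes. Without the steep arrays, 9 genes of the list were called with EPO at 6 h, where 2237 probes of all were called. That fit leaves 1 saline array at 6 h, so no count is given for saline.

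**Figure D5:**
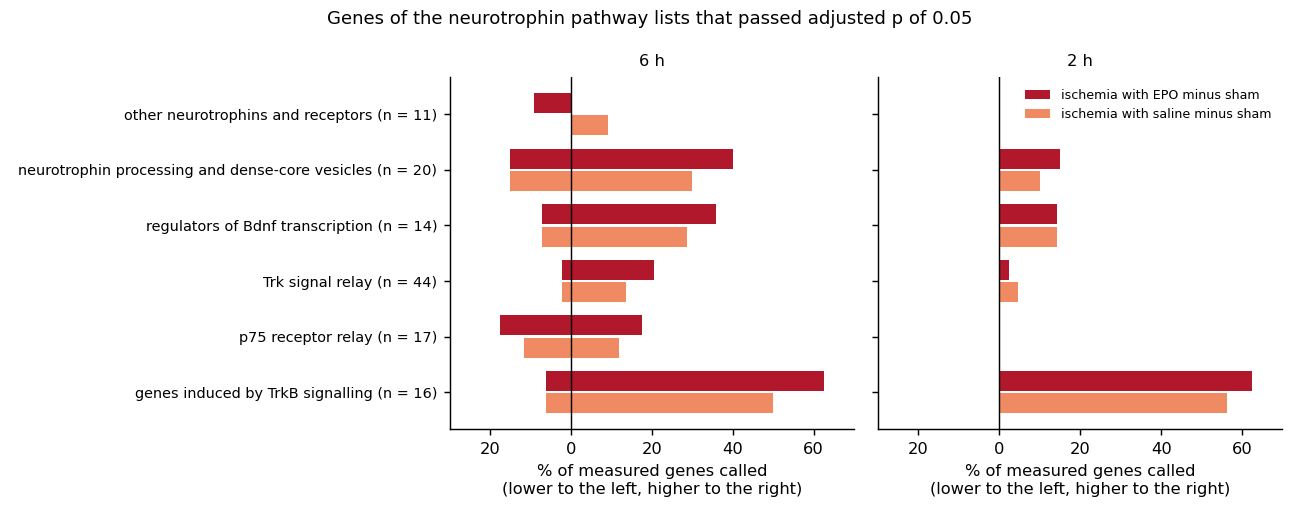
Share of the measured genes in each list that passed an adjusted p of 0.05 against sham, higher to the right and lower to the left, for ischemia with EPO and with saline at 6 h and 2 h. The list of genes induced by TrkB signalling has the longest bars, 10 of 16 higher with EPO at both times.

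The genes most like each member were found by Pearson correlation over the 18 arrays, which share groups, slides and slope classes. For Bdnf these were Ifrd1 (0.975), Midn (0.971), Phlda1 (0.960) and Nup50 (0.955). Smad7 (0.942), Agpat4 (0.917), Rheb (0.904) and Arpc5 (0.902) were most like Vgf. Among the genes most like Ngfr were Igfbpl1 (0.873), Il6 and Sesn3 (0.866 each). Mamstr (0.976), C2h1orf56, Dnal4-ps1 and Tmem87a (0.968 each) were most like Ntf3. Those most like Ntrk3 included Srrm2 (0.903), Prrc2c (0.833) and Man2a1 (0.819). Ntrk2 had no gene so close, with Tfrc at 0.714, Egfr at 0.687, Bhlhe40 at 0.684 and Tial1 at 0.673.

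Markers of some cell types differed from sham at 6 h, beside 19.0% of all genes called with EPO and 13.0% with saline. The mean level of the 7 cortical neuron markers was 2.07 to 2.24 in EPO-treated ischemia, 2.17 to 2.18 with saline and 2.43 to 2.51 in sham, with 4 and 3 called lower. The 8 striatal neuron markers ran from 0.91 to 1.45 with EPO, 0.93 to 1.19 with saline and 0.22 to 0.71 in sham, with 6 and 2 called higher. Of 7 endothelial markers 4 were lower in each, and 1 was higher with EPO. Of 4 neutrophil markers 2 were higher in each, but only 1 of the 4 was well above background on all 18 arrays, so no levels are compared. A marker not read on all arrays may have entered the tests through the ischemic groups alone, so these calls are not taken as a result. Calls went both ways for microglia and macrophages, with 2 of 7 higher and 2 lower with EPO, and 1 higher and 2 lower with saline. They did so too for pericytes and smooth muscle, with 1 of 5 higher and 2 lower with EPO, and 1 higher and 3 lower with saline. Of 5 meningeal markers, limma called 0 with EPO, with 0 at an unadjusted p under 0.05, and 2 were lower with saline. With EPO, 1 of 7 astrocyte markers and 1 of 7 oligodendrocyte markers were higher and 1 of 5 interneuron markers was lower, and with saline limma called 0 in these 3 lists, with 2, 4 and 1 at an unadjusted p under 0.05. At 2 h limma called 1 marker over all 10 lists, beside 1.81% of all genes with EPO and 1.63% with saline. It was Cd68 of the microglia and macrophage list, with saline (0.39 ± 0.08, adjusted p = 0.0437), named after its value was seen. With EPO at 2 h its change was 0.18 ± 0.08 (adjusted p = 0.438). Each list had 0 to 4 markers at an unadjusted p under 0.05 at 2 h. Of 28634 probes, 3450 reached that level with EPO and 3320 with saline at 2 h. At 6 h 7870 did with EPO and 6853 with saline. Their part in the changes of Bdnf, Vgf and Ngfr was not tested, and fewer cells of a type cannot be told apart from less RNA per cell in such tissue.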

How the data were processed

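RNA from 18 cortex samples was hybridized to 1-colour Agilent arrays on 5 slides. Per the submitters' processing notes, Agilent Feature Extraction 9.1.1.1 was used. Per the file headers, the deposited raw files give the processed signal, a background-subtracted intensity, for 43379 spots beside 1639 control spots. The authors' deposited table of log2 values matches the unscaled mean log2 of these signals (largest difference 5.3e-14).

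Spots of a probe were averaged on the log2 scale without outlier-flagged spots, and the array's 75th percentile over all non-control spots was subtracted. A probe entered the tests if all arrays of any 1 group read it well above background. The tests used limma 3.58.1 in R 4.3.3, as 1 model of 6 group means over 18 arrays (two-sided, Benjamini-Hochberg). The brightest probe stood for a gene. Between 61.5% and 80.6% of 41012 probes were well above background per array. Probes were named by accession (10735), symbol (5571) or synonym (3729) through RefSeq's rat gene table. The text names all members, up to 4 called genes of smallest p per list in comparisons with sham, and the 4 genes of highest correlation with each member; some genes that this rule names are not reported here. Members and lists were chosen with earlier results of these data known.

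On simulated data for ischemia with saline against sham at 6 h (28634 probes, 200 changed), 66% of 2-fold and 88% of 4-fold changes were recovered with 8 false calls. Same-number replicates deviated together in every pair only between EPO and saline at 2 h (correlations 0.887, 0.654 and 0.635 across probes). Only there did the rule used count the numbers as pairs. Replicate 1 was the steep array in both of those groups, so pairing cannot be told apart from the slope class there. A fit with the replicate block called no member in that comparison. The normalization, background correction, filter, blocks, variance model and arrays used were each varied.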

Additional observations from a re-analysis of the deposited data

How the results depend on the processing

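Under 35 alternatives, Bdnf stayed called against sham at 6 h with EPO in all 35 (2.09 to 2.44), at 6 h with saline in 34, at 2 h with saline in 34 and at 2 h with EPO in 33. EPO against saline at 6 h was positive for Bdnf in all 35 (0.68 to 1.33, lowest adjusted p 0.355). The losses for Bdnf were 1.11 without the steep arrays (saline, 6 h), 1.51 with only the arrays compared (saline, 2 h), and 1.51 with slide as a fixed block and 1.63 with only the arrays compared (EPO, 2 h). For Vgf with EPO at 6 h the call was lost at 0.64 without the steep arrays and 0.57 with only the arrays compared, and leaving out 1 array gave 0.50 to 0.63, with the loss at 0.50 without replicate 2 of that group. With saline at 6 h Vgf gained a call at 0.41 and 0.42 with slide as a fixed or random block and 0.42 with a variance trend, and leaving out 1 array gave 0.38 to 0.48. EPO against saline at 2 h, 0.02 for Vgf, was -0.16 with slide as a fixed block and -0.17 without the steep arrays, uncalled in each.

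For Ngfr with EPO at 6 h the call was lost at 1.04 with the authors' unscaled values, without the filter, with the replicate block and with only the arrays compared, at 0.91 without the steep arrays and at 0.69 without the arrays numbered apart. Leaving out 1 array gave 0.69 to 1.29, and adjusted p of 0.0268 to 0.178. With saline at 6 h Ngfr gained a call at 1.04 (quantile normalization), 1.02 (all-array filter, scan day as a block, variance trend), 0.92 and 0.97 (slide as a fixed and random block) and 1.19 (slope class as a block), and leaving out 1 array gave 0.66 to 1.26. The replicate block changed no other member's call. The cause of these losses and gains was not tested, except that fits without arrays or on only the arrays compared rest on fewer samples. No call of a member reversed.

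Counts over all probes varied more: ischemia with saline at 6 h called 3164 probes, against 202 without the steep arrays, 1265 with unscaled values and 1343 with only the arrays compared. At 2 h the 356 calls were 26 with only the arrays compared, 123 without the steep arrays, 172 with unscaled values and 634 with slide as a random block. EPO-treated ischemia called 4615 probes at 6 h, against 1168 with only the arrays compared, and 382 at 2 h, against 3. The share of higher calls with saline at 6 h was 43.4%, and 56.7% with the percentile taken over probes (chosen after seeing the data), 56.6% with quantile normalization and 67.1% unscaled. The median change over all probes there was -0.13, while Bdnf, Ngfr and Vgf were positive under each scaling. Of the Trk relay genes 7 were called with saline at 6 h, and limma called 0 without the steep arrays.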
